A study of Danio rerio with 12 samples.

Results

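The genes described here are 42 that code for proteins the liver makes. They are fabp10a, the fatty acid binding protein used as the standard zebrafish hepatocyte marker, 18 plasma carriers, inhibitors and hormone precursors, 7 complement genes, 7 coagulation genes, 5 apolipoproteins and 4 metabolic enzymes. They were chosen by symbol, with earlier results of these data known, and the 42 symbols gave 42 of the 32105 Ensembl gene IDs in the count files. Of these, hpx and itih3a were found under their present names hpxa and itih3a.1, and vtna and vtnb under a single name, VTN, that belongs to 2 IDs, so those copies are given by ID. RNA had been sequenced from pools of 10 whole zebrafish larvae, raised 20 embryos to a well of 10 mL, at 119 hours post-fertilization (hpf). The 4 groups, with 3 libraries each, were as3mt mutants in 1 mM iAs, untreated as3mt mutants, wild type in 1 mM iAs and untreated wild type, where iAs is inorganic arsenic added at 6 hpf. The mutants were homozygous for a CRISPR deletion of 8 bp in exon 3 of as3mt, which ends in a premature stop codon, and descended from F2 fish in the ABNYU background. The wild type was TAB14, so strain and genotype cannot be told apart. The gene as3mt codes for the methyltransferase that turns inorganic arsenic into methylated forms, and all cells of a mutant larva carry the deletion.

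Hepatocytes fill the blood plasma with carriers, protease inhibitors, clotting factors, complement proteins and lipoproteins, each made with a signal peptide and released through the secretory pathway, while fabp10a and the metabolic enzymes stay inside the cell. Most of these genes are switched on by a shared set of liver transcription factors (the HNF1, HNF4, FOXA and C/EBP families). In mammals, inflammation changes the mixture rather than the total: fibrinogen, haptoglobin, hemopexin, ceruloplasmin and C-reactive protein are positive acute-phase proteins, whereas transthyretin, transferrin, fetuin-A and retinol binding protein are negative ones. In zebrafish larvae some of the apolipoproteins are also made by the yolk syncytial layer and the intestine.

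Library totals ran from 28909467 to 43759270 counts, and every gene of the set passed the filter on low counts and was tested. Levels are CPM (counts scaled to a common library total, with TMM factors), and they are compared within a gene, not between genes, since they are not corrected for length. A gene is called, and said to rise or fall, where edgeR's quasi-likelihood test gave an adjusted p below 0.05 over all 23096 genes tested. The targeted transcript as3mt stood at 3.02, 3.31 and 3.51 CPM in the iAs-treated mutant, 9.21, 9.91 and 9.52 CPM in the untreated mutant, 9.77, 9.73 and 9.93 CPM in iAs-treated wild type and 14.3, 16.8 and 17.2 CPM in untreated wild type. It was lower in mutants than in wild type both with iAs (log2 fold change -1.58, adjusted p = 3.16e-09) and without it (log2 fold change -0.75, adjusted p = 3.88e-05), and reads outside the deletion count toward it. All 8 hepatocyte markers (fabp10a, tfa, fga, fgb, ttr, apoa2, hpda and uox) had counts in every library. In pools of whole larvae, fewer hepatocytes and less RNA per hepatocyte cannot be told apart.

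The genes did not move as a block under iAs. In the mutant 27 of 42 fell and 9 rose, while 32.6% of all genes tested fell and 31.1% rose. In wild type 26 of 42 fell and 9 rose, against 22.2% and 22.6% of all genes. Both shares of falling genes were therefore above the background, and both shares of rising genes were at or below it. Since the genes were chosen with earlier results known, such shares, here and below, describe the set and are not a test. The median log2 fold change of the 42 genes was -0.51 in the mutant and -0.48 in wild type, where all tested genes had medians of 0.0092 and 0.01. Changes of at least 2-fold were called for 15 falling and 3 rising genes in the mutant and for 12 falling and 1 rising gene in wild type; of all genes 12% and 8.59% made such changes in the mutant and 3.32% and 4.02% in wild type. Of the 42, 24 fell in both genotypes and 6 rose in both, 2 were called in opposite directions (f2 and apoea), 7 were called in 1 genotype, and 3 (hp, itih2 and pah) were called in neither. How many of all genes fell, rose or were called oppositely in both genotypes was not counted. These joint counts therefore have no background beside them.

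**Figure D1:**
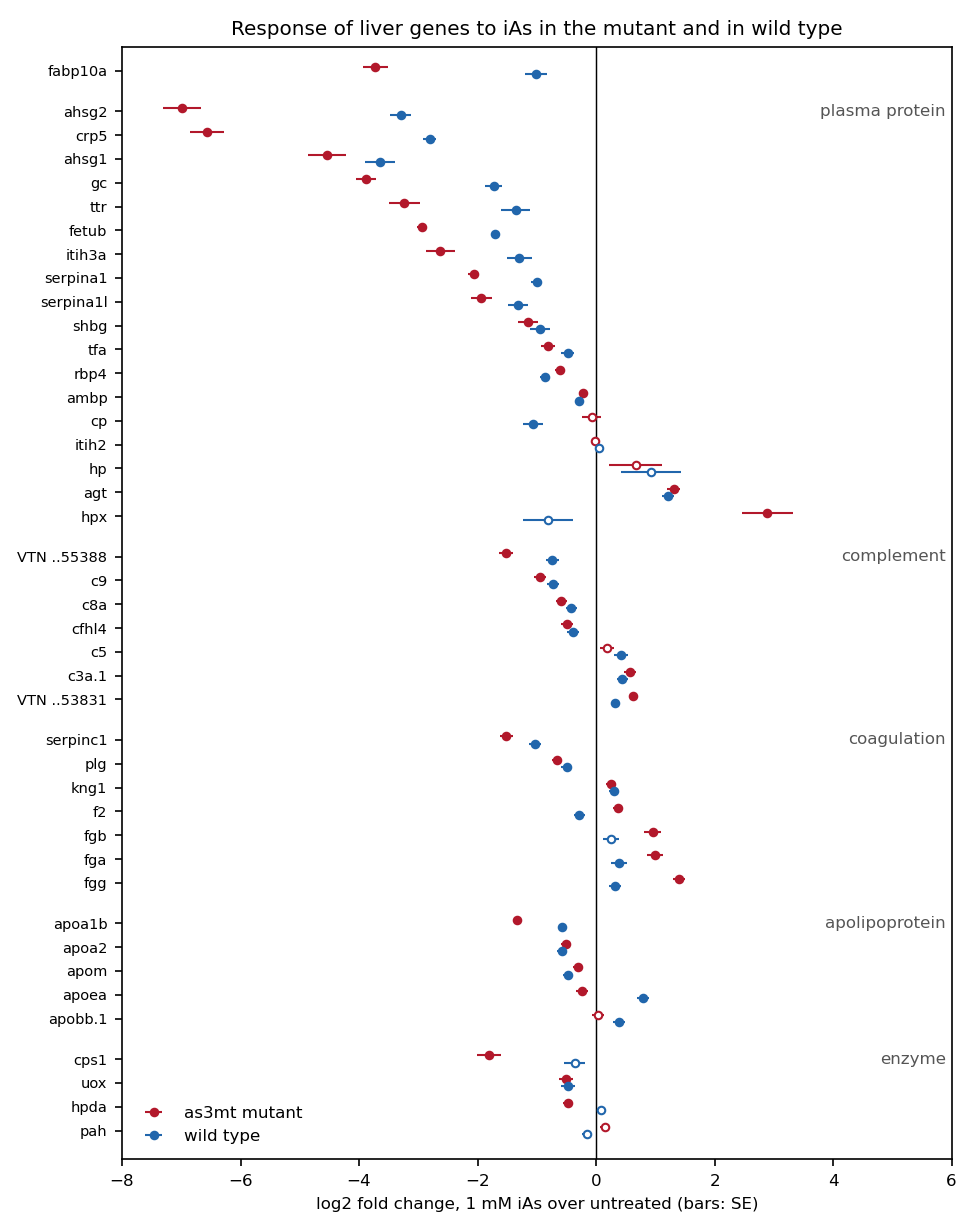
Log2 fold change (iAs over untreated, bars show the SE, 3 libraries per group) of each of the 42 genes in as3mt mutants (red) and in wild type (blue), by class. Filled points were called at an adjusted p below 0.05. Plasma proteins reach -6.99 in the mutant, while fibrinogen genes lie right of 0.

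Summed over the 42 genes, the level was 7782, 8837 and 8069.8 CPM in iAs-treated mutants, against 11739, 13190 and 11823 CPM in untreated mutants. In wild type it was 9858, 9914 and 9294 CPM with iAs, against 12616, 11508 and 12283 CPM without. The treated and untreated libraries did not overlap in either genotype. The classes differed: plasma proteins summed to 1298 ± 69.2 CPM in iAs-treated mutants and 3020.3 ± 212 CPM in untreated mutants (SD, n = 3 each), whereas coagulation genes summed to 923 ± 101 and 657 ± 57.3 CPM in the same groups. In wild type, plasma proteins summed to 1722 ± 219 CPM with iAs and 3224 ± 105 CPM without, and coagulation genes to 639.5 ± 91.8 and 646 ± 22.3 CPM, which overlap. For complement the sums were 507 ± 17.4 CPM with iAs and 526 ± 65.9 CPM without in the mutant, a difference within the spread of the libraries, and 471 ± 36.9 CPM with iAs and 483 ± 21.9 CPM without in wild type. The 5 apolipoprotein genes gave 5299 ± 492 CPM in iAs-treated mutants and 7590.4 ± 522 CPM in untreated ones, which is most of the sum over the 42 genes, and 6490.3 ± 164 CPM in treated and 7229.9 ± 422 CPM in untreated wild type. Enzymes gave 184 ± 1.22, 210.5 ± 10.3, 204 ± 22.8 and 226 ± 10.4 CPM in treated mutants, untreated mutants, treated wild type and untreated wild type. The sums describe the libraries and were not tested, since the genes were chosen with results of these data known.

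**Figure D2:**
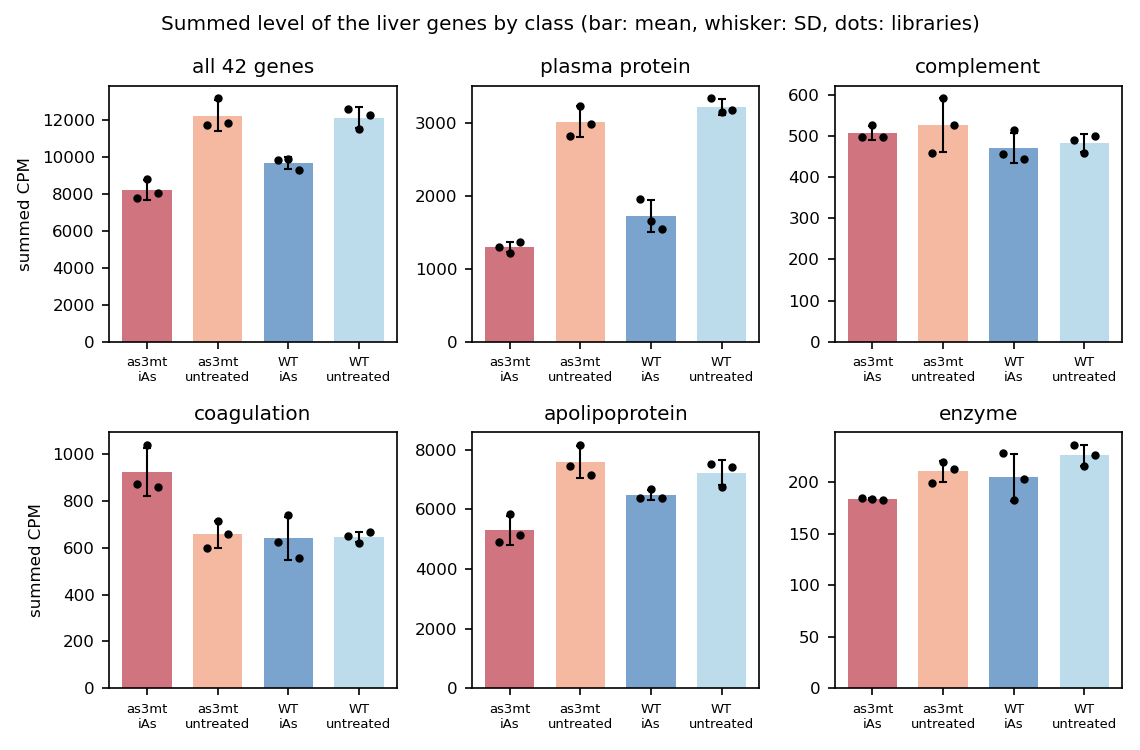
Summed CPM of all 42 genes and of 5 classes in each library (dots), with the mean (bar) and SD (whisker) of the 3 libraries of a group. The plasma protein sum is lowest in iAs-treated mutants at 1298 ± 69.2 CPM, and the coagulation sum is highest there at 923 ± 101 CPM.

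The hepatocyte marker fabp10a (ENSDARG00000038439), which binds fatty acids and bile acids inside the cell, fell steeply in the mutant. Its level was 19.7, 10.4 and 25.8 CPM in the iAs-treated mutant libraries, against 217, 249 and 274 CPM in the untreated ones. In wild type it was 189.9, 146 and 148 CPM with iAs, against 360.5, 315 and 304 CPM without. The groups did not overlap in either genotype. The fall was 13.2-fold in the mutant (log2 fold change -3.73 with SE 0.21, adjusted p = 5.01e-11) and 2.02-fold in wild type (log2 fold change -1.02 with SE 0.18, adjusted p = 0.000225), and the difference of the responses was called (interaction -2.71 with SE 0.27, adjusted p = 1.19e-06). Of the 8 hepatocyte markers, fabp10a fell most in the mutant. There 6 fell and 2 (fga and fgb) rose, and in wild type 5 fell and 1 rose. Of all genes, 32.6% fell and 31.1% rose in the mutant, and 22.2% and 22.6% did in wild type. The markers summed to 2055 to 2368 CPM in treated mutants and 2849 to 3456 CPM in untreated mutants. In wild type their sum was 2020 to 2439 CPM with iAs and 3105 to 3273 CPM without.

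Among the 18 plasma proteins, 13 fell and 2 rose in the mutant, and 14 fell and 1 rose in wild type, with medians of -1.54 and -1.03. For comparison, 32.6% of all genes fell and 31.1% rose in the mutant, and 22.2% fell and 22.6% rose in wild type, so the falls were above those shares in each genotype and the rises below. The largest changes were in the fetuins and in a C-reactive protein gene. Fetuin-A gene ahsg2 (ENSDARG00000069293), whose product binds calcium phosphate in mammalian plasma, was nearly lost in the treated mutant, at 0.0270, 0.198 and 0.0626 CPM against 12.2, 10.1 and 15.5 CPM in the untreated mutant. Wild-type libraries held 3.76, 2.37 and 3.11 CPM with iAs, against 32.1, 27.7 and 30.0 CPM without. The treated mutant libraries held 1, 7 and 2 counts, and the ratio of pooled counts was 131-fold lower (exact 95% interval 71.1 to 274, counting error only). The fitted change was -6.99 on the log2 scale in the mutant (SE 0.32, adjusted p = 3.17e-12) and -3.29 in wild type (adjusted p = 9.56e-11). Without replicate 2 of the treated mutant, which holds most of those counts, the mutant value was -8.04.

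The sister gene ahsg1 (ENSDARG00000026764) had 0.0809, 0.510 and 0.188 CPM in treated mutants, against 5.37, 5.52 and 7.49 CPM in untreated mutants. Treated wild type held 1.02, 0.610 and 1.08 CPM, against 10.9, 12.0 and 10.8 CPM in untreated wild type. It fell in the mutant (log2 fold change -4.54 with SE 0.32, adjusted p = 1.01e-09) and in wild type (log2 fold change -3.65 with SE 0.25, adjusted p = 2.55e-09), and the difference was not called (interaction -0.90 with SE 0.46, adjusted p = 0.155). That turned on replicate 2 of the treated mutant, without which the mutant fell by 5.49 and the interaction was -1.84 (adjusted p = 0.00903). The related fetub, a protease inhibitor of the same family, fell with little spread: 125, 106 and 119 CPM in treated mutants and 874, 955 and 861 CPM in untreated mutants. In wild type fetub stood at 299, 262 and 271 CPM with iAs and 969, 866 and 867 CPM without. Its falls of 7.70-fold in the mutant and 3.25-fold in wild type differed (interaction -1.25 with SE 0.10, adjusted p = 1.74e-07).

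The gene crp5 (ENSDARG00000056498), a member of the C-reactive protein family of pentraxins that bind microbial surfaces, was at 0.0270, 0.0283 and 0.0626 CPM in treated mutants, against 3.25, 4.56 and 4.07 CPM in untreated mutants. In wild type it was at 6.56, 5.51 and 5.63 CPM with iAs, against 41.3, 40.3 and 41.7 CPM without. Each of the 4 groups was thus separate from the others, with untreated wild type highest. The pooled counts of treated mutants were 4, against 439 in untreated mutants, a ratio of 103-fold with an exact 95% interval from 39.8 to 379 (counting error only). The fitted change in the mutant was -6.57 (SE 0.29, adjusted p = 2.29e-12), and wild type fell 6.99-fold (log2 fold change -2.81 with SE 0.11, adjusted p = 1.29e-12). The SE in the mutant is smaller than the counting error of the pooled counts alone.

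The vitamin D binding protein gene gc (ENSDARG00000089310) was the fourth gene by size of change, at 6.39, 5.04 and 6.51 CPM in treated mutants and 79.6, 90.8 and 93.6 CPM in untreated mutants. Treated wild type held 40.6, 24.5 and 24.1 CPM and untreated wild type 106, 95.7 and 92.7 CPM. It fell 14.7-fold in the mutant (log2 fold change -3.88 with SE 0.17, adjusted p = 2.13e-12) and 3.32-fold in wild type (log2 fold change -1.73 with SE 0.15, adjusted p = 3.63e-08). Transthyretin (ttr), a carrier of thyroid hormone, had 5.85, 2.95 and 5.61 CPM in treated mutants against 41.3, 46.8 and 47.8 CPM in untreated mutants, and 20.9, 9.69 and 9.72 CPM in treated wild type against 41.6, 28.8 and 31.7 CPM in untreated wild type. Replicate 1 of treated wild type stood above the other libraries of its group for gc and ttr alike. It did so for other falling genes too, among them fabp10a, fetub, tfa, serpina1l and serpinc1, but not for fga or c3a.1. For ttr the falls were 9.44-fold in the mutant and 2.57-fold in wild type (interaction -1.88 with SE 0.35, adjusted p = 0.000635).

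Smaller falls were shared by carriers and inhibitors. The inter-alpha-trypsin inhibitor heavy chain gene itih3a fell 6.18-fold in the mutant and 2.46-fold in wild type, and the antitrypsin genes serpina1 and serpina1l fell 4.19-fold and 3.82-fold in the mutant. In wild type these 2 genes fell 2.00-fold and 2.50-fold. How alike their sequences are was not examined, so whether reads were shared between them is uncertain. The sex steroid carrier shbg fell 2.23-fold and 1.93-fold in mutant and wild type. Transferrin gene tfa, the iron carrier, fell 1.76-fold in the mutant and 1.40-fold in wild type, and ambp, the precursor of alpha-1-microglobulin, fell 1.17-fold and 1.23-fold. Retinol carrier rbp4 fell less in the mutant (-0.62) than in wild type (-0.87), a difference that missed the threshold (interaction 0.25 with SE 0.11, adjusted p = 0.0955). That interaction was called with DESeq2 (adjusted p = 0.0477) and without replicate 1 of treated wild type (adjusted p = 0.0298).

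A few plasma genes rose or were not called. Angiotensinogen (agt, ENSDARG00000016412), the precursor of the peptide that raises blood pressure, rose in both genotypes: 117, 114 and 104 CPM in treated mutants, against 45.8, 47.0 and 42.7 CPM in untreated mutants. In wild type agt had 74.5, 80.2 and 91.2 CPM with iAs and 34.9, 29.2 and 42.5 CPM without. The rises were 2.48-fold (log2 fold change 1.31 with SE 0.10, adjusted p = 4.28e-09) and 2.31-fold (log2 fold change 1.21 with SE 0.10, adjusted p = 4.78e-08). Hemopexin (hpx, ENSDARG00000012609), a scavenger of free haem, was called in the mutant alone, at 1.73, 3.57 and 1.79 CPM in treated mutants, against 0.227, 0.247 and 0.480 CPM in untreated mutants. Its wild-type libraries held 0.511, 0.632 and 0.412 CPM with iAs, against 0.696, 0.593 and 1.53 CPM without, and these overlapped. The mutant rise (log2 fold change 2.89 with SE 0.42, adjusted p = 1.04e-05) differed from the wild-type value of -0.82 (interaction 3.71 with SE 0.60, adjusted p = 0.000174), and all these levels are low, from 9 to 126 counts per library.

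Ceruloplasmin (cp), a copper-carrying ferroxidase, stood at 14.7, 25.1 and 20.7 CPM in treated mutants, against 22.1, 25.2 and 16.3 CPM in untreated mutants, which overlap. Wild type had 16.9, 13.6 and 15.8 CPM with iAs and 30.8, 29.5 and 36.4 CPM without, all lower with iAs. The fall in wild type was called (log2 fold change -1.06 with SE 0.16, adjusted p = 4.68e-05), the mutant value of -0.08 was not (adjusted p = 0.703), and the responses differed (interaction 0.99 with SE 0.23, adjusted p = 0.0036). Haptoglobin (hp), which binds free haemoglobin, was barely detected, with 4 to 21 counts per library, and was not called (adjusted p = 0.209 in the mutant and 0.153 in wild type). The heavy chain gene itih2 had log2 fold changes of -0.03 and 0.04 in mutant and wild type, not called.

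In the mutant, coagulation genes split between fibrinogen, which rose, and antithrombin and plasminogen, which fell. Of the 7 genes, 5 rose and 2 fell in the mutant, and 3 rose and 3 fell in wild type, where 31.1% of all genes rose and 32.6% fell in the mutant and 22.6% and 22.2% did in wild type. Fibrinogen, which thrombin cuts to form the clot, is built from 3 chains coded by fga, fgb and fgg. The gamma chain gene fgg (ENSDARG00000037281) stood at 199.6, 234 and 201 CPM in treated mutants, against 72.6, 84.8 and 81.9 CPM in untreated mutants. Its wild-type libraries held 96.2, 129 and 101 CPM with iAs and 89.2, 78.6 and 92.8 CPM without. It rose 2.65-fold in the mutant (log2 fold change 1.41 with SE 0.10, adjusted p = 1.37e-09) and 1.25-fold in wild type (log2 fold change 0.33 with SE 0.10, adjusted p = 0.0133), and the difference was called (interaction 1.08 with SE 0.14, adjusted p = 2.22e-05).

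The alpha chain gene fga (ENSDARG00000020741) had 235, 302 and 223 CPM in treated mutants, against 115, 139 and 128 CPM in untreated mutants, and 157, 226 and 141 CPM in treated wild type, against 137, 130.1 and 131 CPM in untreated wild type. The beta chain gene fgb (ENSDARG00000008969) had 158, 217 and 151 CPM and 79.6, 101 and 90.7 CPM in treated and untreated mutants, and 101, 145 and 95.1 CPM and 94.1, 92.7 and 99.0 CPM in treated and untreated wild type. For all 3 chains replicate 2 was the highest treated library in each genotype. The mutant rises were 1.99-fold for fga (log2 fold change 0.99 with SE 0.14, adjusted p = 4.83e-06) and 1.94-fold for fgb (log2 fold change 0.96 with SE 0.14, adjusted p = 1.12e-05), and none of these libraries overlapped. In wild type fga was called (log2 fold change 0.39, adjusted p = 0.0249) and fgb was not (log2 fold change 0.25, adjusted p = 0.155). Without replicate 2 of treated wild type, the wild-type values of fga and fgg were 0.17 (adjusted p = 0.228) and 0.19 (adjusted p = 0.106). Leaving out an untreated wild-type library also ended these calls, with adjusted p values from 0.0571 to 0.0717 without replicate 2 (fga and fgg) or 3 (fga). The interactions of fga (0.60, adjusted p = 0.0246) and fgb (0.70, adjusted p = 0.0124) were called, that of fga missing the threshold without replicate 1 of untreated mutants or replicate 1 or 3 of treated wild type or replicate 1 of untreated wild type (adjusted p up to 0.0604). DESeq2 called neither the interaction of fga (adjusted p = 0.0564) nor its rise in wild type (adjusted p = 0.0961).

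**Figure D3:**
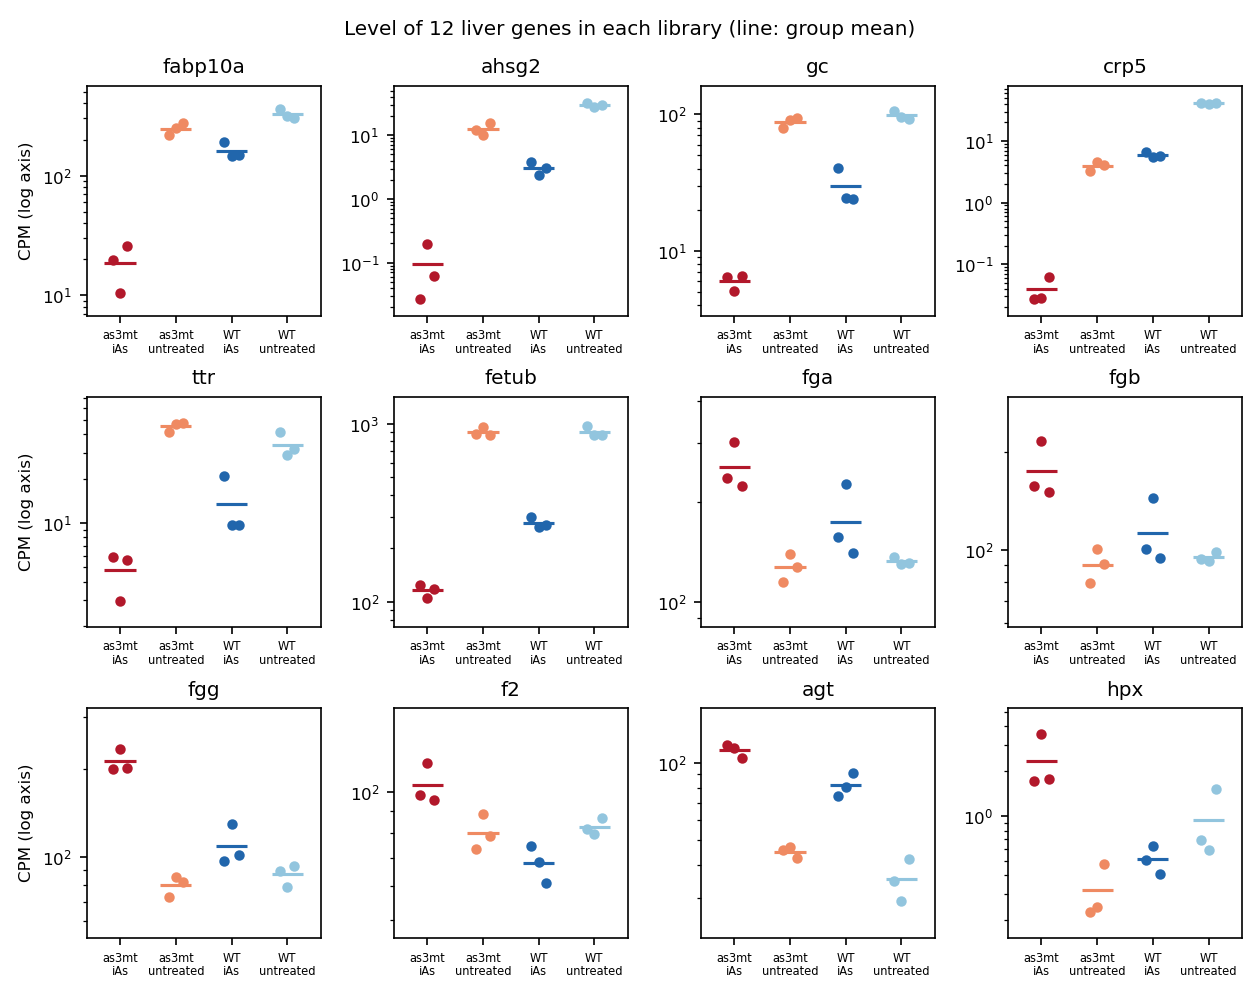
CPM (log axis) of 12 liver genes in each of the 12 libraries (points) with group means (lines), for as3mt mutants with and without iAs and wild type with and without iAs. The points of fabp10a, ahsg2, gc, crp5, ttr and fetub are lowest in treated mutants, while those of fga, fgb, fgg, f2, agt and hpx are highest there, with overlap between treated mutant and treated wild-type libraries for fga.

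Prothrombin (f2), the zymogen of thrombin, was called in opposite directions. It had 98.0, 117 and 95.6 CPM in treated mutants, against 73.2, 88.4 and 78.6 CPM in untreated mutants, and 74.4, 68.5 and 60.9 CPM in treated wild type, against 81.8, 79.6 and 86.6 CPM in untreated wild type. All treated mutant libraries lay above, and all treated wild-type libraries below, their untreated counterparts. The rise in the mutant (log2 fold change 0.37 with SE 0.09, adjusted p = 0.00126) and the fall in wild type (log2 fold change -0.28 with SE 0.09, adjusted p = 0.0141) differed (interaction 0.65 with SE 0.12, adjusted p = 0.000726). The wild-type call ended without replicate 3 of treated wild type (adjusted p = 0.0665) or replicate 3 of untreated wild type (adjusted p = 0.0594).

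Antithrombin gene serpinc1, the main inhibitor of thrombin, fell furthest in this class. Treated mutants held 27.4, 25.1 and 32.0 CPM and untreated mutants 76.5, 89.7 and 74.3 CPM, while treated wild type held 51.0, 43.3 and 36.0 CPM and untreated wild type 87.9, 86.5 and 91.3 CPM. The falls were 2.85-fold in the mutant (log2 fold change -1.51 with SE 0.11, adjusted p = 1.56e-09) and 2.04-fold in wild type (log2 fold change -1.03 with SE 0.11, adjusted p = 5.29e-07). Plasminogen (plg), whose active form dissolves clots, had 98.0, 97.2 and 101 CPM in treated mutants against 145, 166 and 157 CPM in untreated mutants, and 105, 84.1 and 76.2 CPM in treated wild type against 126, 121 and 128 CPM in untreated wild type. It fell 1.58-fold and 1.41-fold in mutant and wild type, and those falls were not called as different (adjusted p = 0.356). Kininogen (kng1), the source of bradykinin, rose 1.19-fold in the mutant and 1.23-fold in wild type, calls that ended without single libraries (adjusted p up to 0.0953 in the mutant, without replicate 3 of the treated or replicate 1 of the untreated group, and 0.0567 in wild type, without replicate 3 of the treated group).

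Complement genes moved in both directions, with a median of -0.49 in the mutant and -0.39 in wild type. In the mutant 4 of 7 fell and 2 rose, and in wild type 4 fell and 3 rose. Over all genes 32.6% fell and 31.1% rose in the mutant, near the complement share of rises, and 22.2% and 22.6% did in wild type. The central component gene c3a.1 stood at 249, 256 and 233 CPM in treated mutants, against 145, 186 and 166 CPM in untreated mutants, and at 174, 232 and 206 CPM in treated wild type, against 155, 141 and 155 CPM in untreated wild type. It rose 1.49-fold (log2 fold change 0.57 with SE 0.09, adjusted p = 4.23e-05) and 1.36-fold (log2 fold change 0.44 with SE 0.09, adjusted p = 0.00107) in mutant and wild type, and belongs to a family of C3 genes that may share reads. The gene c5, whose product starts the membrane attack complex, had 41.5, 50.9 and 39.2 CPM in treated mutants and 37.4, 46.2 and 32.1 CPM in untreated mutants, which overlap, and 53.0, 58.9 and 50.1 CPM in treated wild type and 41.7, 38.1 and 41.4 CPM in untreated wild type. The rise of c5 was called in wild type (log2 fold change 0.42, adjusted p = 0.00549) and not in the mutant (log2 fold change 0.19, adjusted p = 0.161), and the responses were not called as different (adjusted p = 0.291).

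The genes c8a and c9, for subunits of the membrane attack complex, fell. For c9, the subunit that forms most of the pore, levels were 73.5, 70.5 and 82.0 CPM in treated mutants against 118, 165 and 153 CPM in untreated mutants, and 81.5, 87.7 and 69.2 CPM in treated wild type against 133, 125 and 138 CPM in untreated wild type. Its falls were 1.93-fold in the mutant (log2 fold change -0.95 with SE 0.10, adjusted p = 3.34e-07) and 1.66-fold in wild type (log2 fold change -0.73 with SE 0.10, adjusted p = 2.07e-05). The c8a subunit had 13.6, 14.7 and 15.2 CPM in treated and 18.8, 23.5 and 23.0 CPM in untreated mutants, and 14.5, 15.5 and 13.4 CPM in treated and 18.97, 19.1 and 20.0 CPM in untreated wild type. No treated library of c8a or c9 reached an untreated one of its genotype. The factor H-like gene cfhl4, of the family that restrains complement, fell 1.41-fold and 1.31-fold in mutant and wild type.

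The 2 vitronectin copies, genes for an adhesive plasma protein that also blocks the membrane attack complex, moved apart. VTN ENSDARG00000055388 had 14.6, 13.6 and 12.0 CPM in treated mutants, against 33.5, 43.8 and 37.9 CPM in untreated mutants, and 21.0, 17.1 and 16.1 CPM in treated wild type, against 29.1, 27.5 and 33.5 CPM in untreated wild type. VTN ENSDARG00000053831 had 53.8, 63.0 and 59.8 CPM in treated mutants, against 37.2, 40.4 and 36.4 CPM in untreated mutants, and 43.4, 39.9 and 41.9 CPM in treated wild type, against 33.3, 31.7 and 35.1 CPM in untreated wild type. With iAs the first copy was lower, and the other higher, in every library than in any untreated library of the same genotype. The copy ENSDARG00000055388 fell 2.86-fold in the mutant (log2 fold change -1.51 with SE 0.12, adjusted p = 3.12e-09) and 1.67-fold in wild type (log2 fold change -0.74 with SE 0.11, adjusted p = 4.87e-05), whereas ENSDARG00000053831 rose 1.55-fold (log2 fold change 0.63 with SE 0.07, adjusted p = 4.57e-07) and 1.25-fold (log2 fold change 0.32 with SE 0.07, adjusted p = 0.00142).

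Among apolipoproteins, 4 of 5 fell and 0 rose in the mutant, while 3 fell and 2 rose in wild type. All genes gave 32.6% falls and 31.1% rises in the mutant, and 22.2% and 22.6% in wild type. The high-density lipoprotein gene apoa1b (ENSDARG00000101324) led, with 1118, 1189 and 1258 CPM in treated mutants against 2792, 3152 and 3058 CPM in untreated mutants. In wild type it had 2232, 2072 and 1998 CPM with iAs against 3298, 2956 and 3144 CPM without. The fall was 2.52-fold in the mutant (log2 fold change -1.34 with SE 0.07, adjusted p = 1.49e-11), larger than the 1.49-fold of wild type (interaction -0.76 with SE 0.09, adjusted p = 1.3e-05). The gene apoa2, for another protein of those particles, had 1041, 1352 and 1109 CPM in treated and 1516, 1816 and 1662 CPM in untreated mutants, and 1036, 1071 and 948 CPM in treated and 1542, 1473 and 1515 CPM in untreated wild type. It fell 1.43-fold in the mutant and 1.48-fold in wild type, values that were not called as different (interaction 0.06 with SE 0.12, adjusted p = 0.768). The sphingosine-1-phosphate carrier apom, at 61.7, 77.8 and 64.0 CPM in treated and 72.2, 90.4 and 88.8 CPM in untreated mutants, and 56.9, 56.0 and 53.8 CPM in treated and 79.9, 77.8 and 73.4 CPM in untreated wild type, fell 1.24-fold and 1.39-fold.

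The genes for the lipoprotein receptor ligand apoea and for the scaffold of very-low-density lipoprotein, apobb.1, behaved otherwise. For apoea, treated mutants held 95.7, 109 and 89.3 CPM and untreated mutants 106, 129 and 111 CPM, while treated wild type held 141, 175 and 188 CPM and untreated wild type 104, 87.8 and 98.5 CPM. All treated wild-type libraries were above the untreated ones, and the mutant libraries overlapped. It rose 1.74-fold in wild type (log2 fold change 0.80 with SE 0.10, adjusted p = 5.76e-06), and the responses differed (interaction -1.04 with SE 0.14, adjusted p = 3.78e-05). Its small fall in the mutant (log2 fold change -0.24 with SE 0.10, adjusted p = 0.0484) was not called without replicate 1 or 3 of treated mutants or replicate 2 of untreated mutants or replicate 2 of treated wild type or replicate 1 or 3 of untreated wild type (adjusted p from 0.0512 to 0.212), or with DESeq2 or its size factors. For apobb.1 the levels were 2589, 3123 and 2622 CPM in treated and 2956, 2984 and 2239 CPM in untreated mutants, and 2928, 3306 and 3210.2 CPM in treated and 2509.6, 2154 and 2577 CPM in untreated wild type. It rose in wild type (log2 fold change 0.38 with SE 0.10, adjusted p = 0.00511) and was not called in the mutant (log2 fold change 0.03 with SE 0.10, adjusted p = 0.829), with a difference that missed the threshold (interaction -0.36 with SE 0.14, adjusted p = 0.0695). That interaction was called with library size alone or with no filter on low counts (adjusted p = 0.0275 and 0.0385). It was also called without replicate 2 of treated mutants (adjusted p = 0.0338) or replicate 3 of untreated mutants (adjusted p = 0.00458).

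Of the 4 enzyme genes, cps1 changed furthest. In the mutant 3 fell and 0 rose, and in wild type 1 fell and 0 rose. That 1 fall in wild type is near the 22.2% of all genes, while 32.6% fell in the mutant. The gene cps1 codes for carbamoyl phosphate synthetase, which feeds ammonia into the urea cycle, and had 1.29, 1.39 and 1.38 CPM in treated mutants against 5.60, 4.72 and 3.81 CPM in untreated mutants. In wild type it had 4.81, 3.82 and 4.07 CPM with iAs against 4.09, 5.78 and 6.44 CPM without, with overlap. It fell 3.48-fold in the mutant (log2 fold change -1.80 with SE 0.20, adjusted p = 4.11e-07), its wild-type value was not called (log2 fold change -0.36 with SE 0.18, adjusted p = 0.107), and the 2 responses differed (interaction -1.44 with SE 0.27, adjusted p = 0.000623).

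Urate oxidase (uox), a peroxisomal enzyme of purine breakdown, had 34.5, 30.6 and 40.9 CPM in treated and 48.0, 55.8 and 46.7 CPM in untreated mutants, and 49.4, 37.5 and 34.9 CPM in treated and 59.3, 51.8 and 57.2 CPM in untreated wild type. It fell 1.42-fold and 1.38-fold in mutant and wild type. The tyrosine-degrading dioxygenase hpda had 47.9, 44.0 and 49.0 CPM in treated and 57.8, 67.3 and 70.3 CPM in untreated mutants, and 83.9, 69.2 and 75.8 CPM in treated and 77.6, 67.4 and 70.3 CPM in untreated wild type. It fell in the mutant (log2 fold change -0.47 with SE 0.08, adjusted p = 9.49e-05), was not called in wild type (log2 fold change 0.09 with SE 0.08, adjusted p = 0.417), and the responses differed (interaction -0.56 with SE 0.12, adjusted p = 0.00174). Phenylalanine hydroxylase (pah), which makes tyrosine from phenylalanine, had 101, 108 and 91.1 CPM in treated and 88.0, 91.9 and 91.5 CPM in untreated mutants, and 90.0, 72.0 and 87.8 CPM in treated and 94.9, 90.1 and 92.5 CPM in untreated wild type. It was called in neither genotype (0.14 and -0.15 in mutant and wild type), although its interaction passed narrowly (interaction 0.30 with SE 0.11, adjusted p = 0.049).

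The next question was which genes responded differently in the mutant. Of the 42, 14 had an interaction called below 0, meaning a more negative response in the mutant, and 8 had one called above 0, while 17.9% and 12.3% of all genes did. The set's share was above that of all genes in each direction. Responses differed by at least 2-fold for 10 genes below 0 and 2 above, against 4.91% and 2.84% of all genes. Plasma proteins supplied 7 of the genes below 0 and coagulation genes 4 of those above 0, namely fga, fgb, fgg and f2. The most negative values were -3.76 for crp5, -3.69 for ahsg2, -2.71 for fabp10a and -2.15 for gc, and the most positive was 3.71 for hpx. Without replicate 2 of treated mutants the ahsg2 value was -4.75, beyond that of crp5. Of the 5 apolipoproteins 0 had an interaction called above 0, which for so few genes is near the 12.3% of all genes. Scaling by library size alone, which shifted the median interaction of all genes to -0.12, gave 16 genes below 0 and 5 above, with no call for fga, pah and VTN ENSDARG00000053831. The number above 0 was also 5 without replicate 1 of untreated mutants or replicate 1 of untreated wild type. Of all genes, 2513 of 23340 and 2379 of 23343 tested were above 0 in those fits, so the set's share was then near that of all genes.

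**Figure D4:**
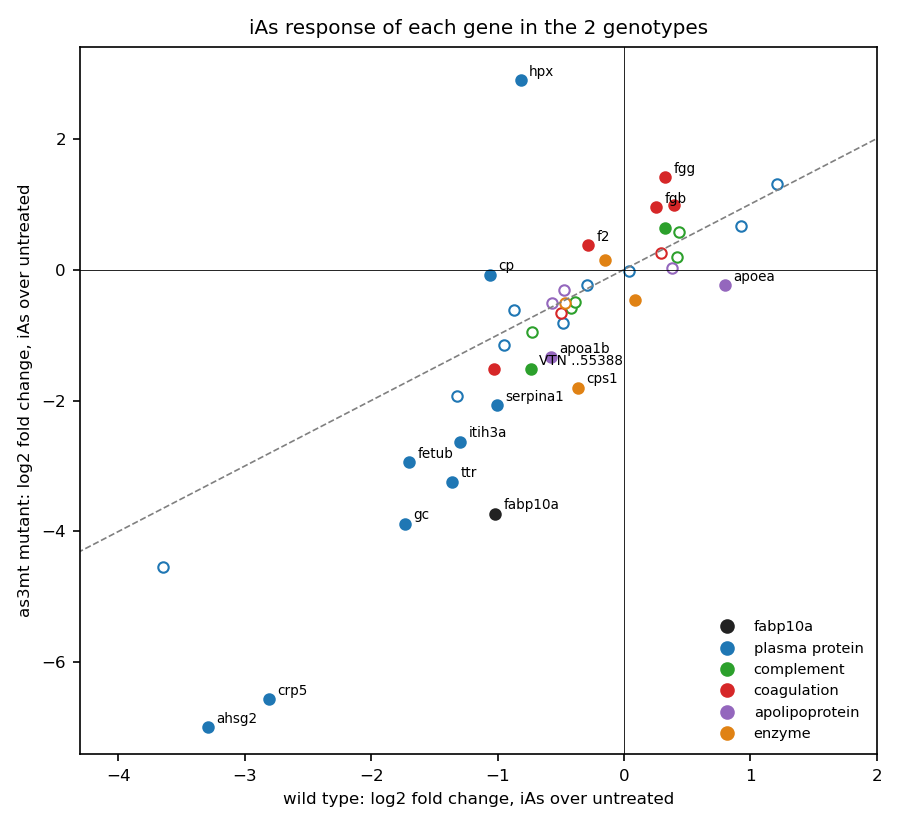
Log2 fold change (iAs over untreated) of each of the 42 genes in as3mt mutants (vertical axis) against that in wild type (horizontal axis), coloured by class; the dashed line marks equal responses and filled points have a called interaction. Most falling plasma proteins lie below the line, down to -6.99 for ahsg2, and fgg, fga, fgb, f2 and hpx lie above it.

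Without iAs, fewer of these genes differed between the mutant and wild type than with it. The same held for all genes, of which 27.9% were lower and 22.5% higher in the mutant with iAs. In untreated mutants 6 of 42 were lower and 5 higher than in untreated wild type, against 6.82% and 6.64% of all genes tested. Both shares were above those of all genes, that of higher genes resting on calls that ended without single libraries. At least 2-fold, 3 were lower and 0 higher, against 1.66% and 1.78% of all genes. The 6 lower genes were all plasma proteins: crp5 (log2 fold change -3.38 with SE 0.11, adjusted p = 1.7e-12), ahsg2 (log2 fold change -1.25 with SE 0.15, adjusted p = 2.57e-05), ahsg1 (log2 fold change -0.88, adjusted p = 0.00732), cp (log2 fold change -0.60, adjusted p = 0.0179), hpx (log2 fold change -1.53, adjusted p = 0.0333) and itih3a (log2 fold change -0.66, adjusted p = 0.0356). The crp5 levels quoted above were 10.4-fold lower in untreated mutants than in untreated wild type, without overlap. The 5 higher genes differed by little: agt (0.35), plg (0.32), kng1 (0.31), itih2 (0.21) and VTN ENSDARG00000055388 (0.36). Apart from crp5, ahsg2 and ahsg1, each of these calls ended without at least 1 library, with adjusted p up to 0.217 for VTN ENSDARG00000055388. Not called were hpx, itih3a, agt and itih2 without replicate 1 of untreated mutants, and hpx, agt, plg, kng1, VTN ENSDARG00000055388 and itih2 without replicate 2. The calls of cp, itih3a, kng1 and VTN ENSDARG00000055388 ended without replicate 3 of that group. In untreated wild type, leaving out replicate 1 ended those of itih3a, agt, plg, VTN ENSDARG00000055388 and itih2, replicate 2 those of itih3a, agt, plg, kng1, VTN ENSDARG00000055388 and itih2, and replicate 3 those of cp, hpx and itih3a. Leaving out replicate 2 or 3 of treated mutants or replicate 2 of treated wild type also ended that of itih2. The number of higher genes was 3 without replicate 1 and 0 without replicate 2 of untreated mutants, 1 without replicate 1 and 0 without replicate 2 of untreated wild type, and the number of lower genes was 3 without replicate 3 of untreated wild type. In the same order, 1102 of 23340, 1022 of 23381, 1068 of 23343 and 1059 of 23330 of all genes were higher, and 1129 of 23364 were lower in the last fit. The set's share of higher genes was below that of all genes in these fits, except without replicate 1 of untreated mutants. fabp10a was -0.40 on the log2 scale (adjusted p = 0.165), with 217, 249 and 274 CPM in untreated mutants and 360.5, 315 and 304 CPM in untreated wild type, which do not overlap. With only the untreated libraries in the fit, fabp10a was called (adjusted p = 0.0035), as were serpina1l, shbg, ttr and apoea. None of the complement, coagulation, apolipoprotein or enzyme genes was called lower in untreated mutants. For classes of 4 to 7 genes this is near the 6.82% of all genes.

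Under iAs, 19 of 42 genes were lower and 12 higher in the mutant than in wild type, where 27.9% and 22.5% of all genes were. Differences of at least 2-fold were called for 11 lower genes and 1 higher gene, against 6.83% and 5.31% of all genes. This comparison uses the same treated libraries as those above. The largest deficits were in crp5 (log2 fold change -7.14 with SE 0.27, adjusted p = 2.3e-12), ahsg2 (log2 fold change -4.94 with SE 0.38, adjusted p = 1.18e-08), fabp10a (log2 fold change -3.12 with SE 0.21, adjusted p = 1.91e-09) and gc (log2 fold change -2.31 with SE 0.17, adjusted p = 6.43e-09). Without replicate 2 of treated mutants the ahsg2 value was -6.00. Fibrinogen gene fgg was 1.94-fold higher in treated mutants (log2 fold change 0.96 with SE 0.10, adjusted p = 4.78e-07), fgb 1.54-fold, f2 1.52-fold and fga 1.46-fold. Coagulation was the class with more genes higher (5 of 7) than lower (1, serpinc1 at -0.63), and plasma proteins that with most genes lower (11 of 18). The enzymes cps1 (-1.64) and hpda (-0.70) were lower and pah (0.27) higher in treated mutants, the last not called without replicate 2 of treated wild type (adjusted p = 0.0739). Likewise c5 (-0.30), apom (0.29), rbp4 (0.24) and c3a.1 (0.27) were called, but not without replicate 1 or 3 of treated mutants or replicate 1 or 2 of treated wild type (c5, adjusted p up to 0.146), replicate 2 of treated mutants (apom, 0.0526), replicate 2 or 3 of treated wild type (rbp4, up to 0.0874) and replicate 1 of treated mutants or replicate 1 of treated wild type (c3a.1, up to 0.133).

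Further genes of the same pathways were taken from lists of other liver genes, also chosen with earlier results of these data known. Their counts stand against all genes tested, of which 32.6% fell and 31.1% rose in the mutant and 22.2% fell and 22.6% rose in wild type. Of 15 other coagulation genes tested, 11 fell and 1 rose in the mutant, with a median of -1.39, and 8 fell and 2 rose in wild type, with shares of falls above, and of rises below, those of all genes. Among the falls in the mutant was an ID named F7 (ENSDARG00000075827, log2 fold change -3.96, adjusted p = 1.53e-08). The name F7, of the factor that starts clotting with tissue factor, belongs to several IDs, and the listed f7i and f7l were not found. Which copy this ID is was therefore not told apart. Its levels were 0.135, 0.142 and 0.219 CPM in treated mutants, against 2.62, 2.50 and 2.63 CPM in untreated mutants. Protein Z (PROZ, log2 fold change -2.30, adjusted p = 4.09e-09), a cofactor for the inhibition of factor X, fell as well, and so did the factor IX gene f9a (log2 fold change -3.08, adjusted p = 0.00151), with 0.108, 0 and 0.0313 CPM in treated mutants and 0.454, 0.412 and 0.424 CPM in untreated mutants. In the mutant, fibrinogen and f2 went in the other direction from most genes of that list.

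Of 23 other complement genes tested, 15 fell and 8 rose in the mutant, and 8 fell and 7 rose in wild type. The share of rises in the mutant was near the 31.1% of all genes, and that of falls was above the 32.6%. In wild type both shares were above the 22.6% and 22.2% of all genes. At least 2-fold, 7 rose and 7 fell in the mutant, against 8.59% and 12% of all genes. In wild type 4 rose and 1 fell by that much, against 4.02% and 3.32%. The shares of rises of that size were above those of all genes in both genotypes. The C4 gene c4b, needed by the classical and lectin pathways, rose to 108, 116 and 109 CPM in treated mutants, against 5.42, 8.70 and 5.93 CPM in untreated mutants, and in wild type it had 28.8, 52.3 and 34.8 CPM with iAs against 7.99, 9.64 and 6.99 CPM without. Those rises were 4.05 and 2.23 on the log2 scale in mutant and wild type (interaction 1.83, adjusted p = 5.8e-05). The C3 copy c3a.4 rose as well (log2 fold change 4.47, adjusted p = 3.76e-09 in the mutant), and cfhl3, of the factor H-like family, fell (log2 fold change -2.86, adjusted p = 7.14e-06).

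Among 20 other plasma proteins 9 fell and 6 rose in the mutant, and 9 fell and 4 rose in wild type. The shares of rises were near the 31.1% and 22.6% of all genes in mutant and wild type, and those of falls above the 32.6% and 22.2%. The falls included crp1 (log2 fold change -5.06, adjusted p = 4.22e-11) and crp3 (log2 fold change -3.60, adjusted p = 9.39e-10), relatives of crp5 that may share its reads. The level of crp1 was 0.108, 0.0850 and 0.0940 CPM in treated mutants, against 3.33, 3.68 and 2.88 CPM in untreated mutants, and in wild type 1.74, 2.08 and 1.92 CPM with iAs, against 2.76, 3.22 and 3.37 CPM without. Whereas crp5 was lower in untreated mutants than in untreated wild type, crp1 was not called there (log2 fold change 0.08, adjusted p = 0.813). A lower level there was not particular to crp5. Of these 20 genes, 6 were lower and 2 higher in untreated mutants, against 6.82% and 6.64% of all genes. At least 2-fold, 3 were lower and 0 higher, against 1.66% and 1.78% of all genes.

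In the lipid transport list 12 of 16 fell and 4 rose in the mutant, with a median of -1.01, and 9 fell and 4 rose in wild type. Of all genes, 32.6% fell and 31.1% rose in the mutant, and 22.2% fell and 22.6% rose in wild type. The list's shares of falls were above these, and its share of rises was below in the mutant and near in wild type. The ApoB copy apobb.2 (log2 fold change -3.72, adjusted p = 1.35e-07), apoa4b.3 (log2 fold change -3.30, adjusted p = 2.74e-07) and apoc4 (log2 fold change -2.84, adjusted p = 0.0012), the last with few counts, fell most. Of 39 other liver enzymes, 23 fell and 8 rose in the mutant, and 20 fell and 11 rose in wild type. The enzyme shares of falls were above those of all genes, and that of rises was below in the mutant and a little above in wild type. The allantoicase gene ALLC, which acts after urate oxidase in the same breakdown of purines, fell (log2 fold change -3.97, adjusted p = 2.92e-12), where uox itself was at -0.51. The tryptophan dioxygenases TDO2 (log2 fold change -2.75, adjusted p = 1.55e-13) and tdo2b (log2 fold change -2.43, adjusted p = 1.64e-10) fell with it.

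Liver transcription factors were near the shares of all genes, 32.6% falls and 31.1% rises in the mutant and 22.2% and 22.6% in wild type. In the mutant 10 of 26 fell and 7 rose, with a median of 0.067, and in wild type 6 fell and 7 rose. CEBPB, the C/EBP factor that drives acute-phase genes in mammals, rose to 237, 119 and 136 CPM in treated mutants, against 17.4, 22.6 and 32.3 CPM in untreated mutants. In wild type it had 37.4, 34.8 and 39.5 CPM with iAs and 14.9, 17.7 and 20.8 CPM without. Its rise was larger in the mutant (2.77 and 1.07 in mutant and wild type, interaction 1.70, adjusted p = 0.000513). The bile acid-induced repressor NR0B2 fell in the mutant (log2 fold change -0.92, adjusted p = 2.57e-05) and rose in wild type (log2 fold change 1.77, adjusted p = 6.68e-08), and gata4, a factor of endoderm and heart, fell in the mutant (log2 fold change -0.88, adjusted p = 2.45e-05). HNF4A, a main regulator of hepatocyte genes, was -0.52 in the mutant and -0.27 in wild type, both called, and CEBPA (0.08 and -0.03) was called in neither; these 2 were named after their values were seen.

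**Figure D5:**
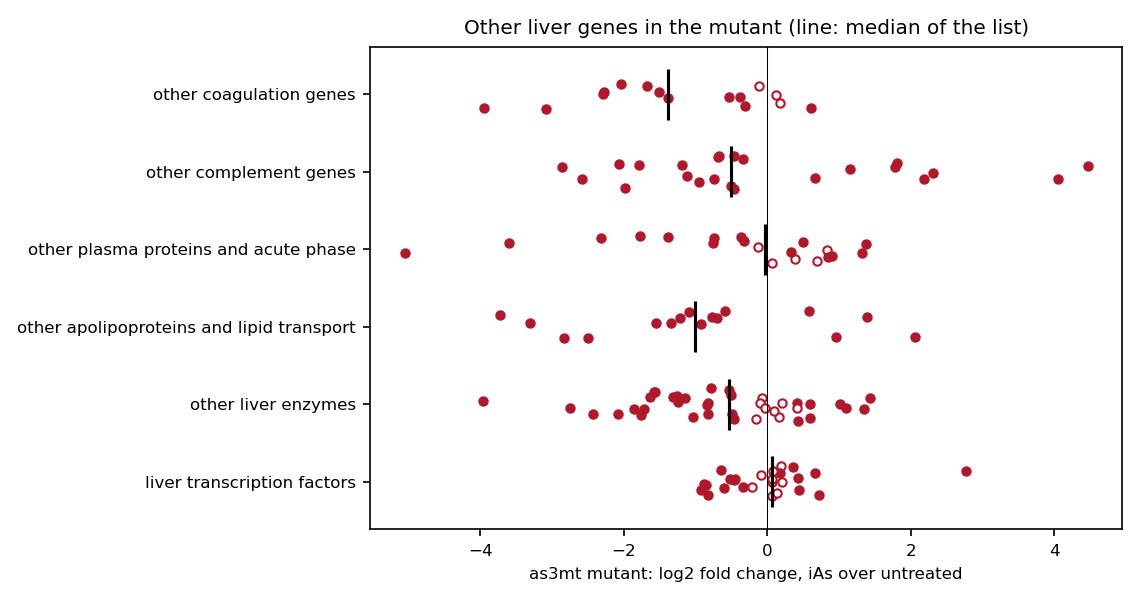
Log2 fold change in as3mt mutants (iAs over untreated) of genes in 6 lists of other liver genes; each point is a gene, filled if called, and the line is the list's median. The median of other coagulation genes is -1.39 and that of liver transcription factors 0.067.

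Markers of several other organs moved with iAs too, while the biliary sums overlapped between treated and untreated libraries of each genotype. Of all genes tested, 32.6% fell and 31.1% rose in the mutant, and 22.2% fell and 22.6% rose in wild type. The biliary counts in the mutant were near these shares. All 13 enterocyte markers fell in the mutant and 11 in wild type, and their summed level was 616 to 660.1 CPM in treated mutants, 2586 to 2713 CPM in untreated mutants, 1271 to 1449 CPM in treated wild type and 2348 to 2589.8 CPM in untreated wild type. All 12 exocrine pancreas markers fell in each genotype, with sums of 3828 to 4790.1, 8255 to 9645, 7609 to 8849 and 11494 to 13872 CPM in the same groups. Of 11 macrophage markers tested, 7 rose and 1 fell in the mutant, and 1 rose and 1 fell in wild type, with sums of 105 to 111 CPM in treated mutants, 66.5 to 70.3 CPM in untreated mutants, 66.9 to 69.1 CPM in treated wild type and 57.8 to 62.7 CPM in untreated wild type. The macrophage marker IDs MPEG1 ENSDARG00000078569 and MFAP4 ENSDARG00000038681 were at 0 in some libraries. Every ID of a shared name was taken, so these counts are of IDs, not of independent markers. The 12 macrophage IDs came from 5 names, most of them under MFAP4 or MPEG1, and the 13 enterocyte IDs from 8 names. The macrophage list also holds lyz, which is not a marker of macrophages alone. Of 5 biliary cell markers, 2 fell and 1 rose in the mutant, and 3 fell and 1 rose in wild type, with sums of 241 to 266, 250.4 to 275, 255 to 265 and 259 to 272 CPM in the order of the groups above. Of 4 erythrocyte markers tested, 2 fell in the mutant, while 3 rose and 1 fell in wild type, with sums of 25.1 to 29.7, 74.5 to 88.0, 105 to 115 and 58.9 to 63.8 CPM in those groups. The part of these cells in the values of the liver genes was not tested.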

How the data were processed

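RNA was measured by poly-A RNA-seq in pools of whole larvae, 3 libraries in each of 4 groups taken from the sample titles. The deposited values are raw read counts per Ensembl gene ID. The submitters' processing notes name FastQC 0.11.5, Trimmomatic 0.36 and the build GRCz10. For the aligner, counter and strand, settings were not given in the sources used here, so close copies and overlapping genes may share reads.

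Names came from a table of Ensembl IDs, with RefSeq synonyms (assembly GRCz12tu) for 2 genes of the set and for some listed genes. Names still unmatched, among them vtna and several in the lists, took every ID of the human-style name without the copy suffix. Genes outside the set are printed as in that table. Genes passing filterByExpr (minimum count 10; 23096) were scaled with TMM and fitted with edgeR 4.0.16 (glmQLFit, glmQLFTest; R 4.3.3) to the 4 groups over all 12 libraries. Contrasts were iAs in each genotype, genotype without and with iAs, and their interaction. Adjusted p values are Benjamini-Hochberg over all genes tested. The SE given with a log2 fold change is its absolute value divided by the square root of the test's F value. It was derived from the test, and can be too small at low counts. The fit was tested on simulated counts. Exact intervals of pooled count ratios are at 95%. The rule for levels given per library took fabp10a, the 4 genes of each class with the largest change in the mutant, and genes called against their class or in opposite directions. Those of ttr, fetub and cp were added after their values were seen. The genes and lists were chosen with earlier results of these data known. Of the names in the 6 lists of other liver genes, 23 of 27 plasma proteins, 26 of 28 complement, 14 of 17 coagulation, 16 of 17 lipid transport, 37 of 37 enzyme and 25 of 25 transcription factor names matched.

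No pairing was used, since the labels do not say what the replicate numbers mean. Same-numbered replicates showed little shared deviation (correlations from -0.0262 to 0.0695), although for iAs in wild type 3 of 3 matched their own number best. The labels do not say whether replicates came from separate clutches, so the p values reflect only how far these libraries varied, part of which may be technical. Sequences and motifs of these genes were not analysed here, and 1 gene among the other plasma proteins that the naming rule picks is not reported here.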

Additional observations from a re-analysis of the deposited data

Results flagged for a closer look

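Results stand here where the iAs response differed between the mutant and wild type by the interaction test (edgeR, adjusted p below 0.05), and each value is the interaction on the log2 scale, mutant response minus wild-type response. Values below 0 were -3.76 for crp5, -3.69 for ahsg2, -2.71 for fabp10a, -2.15 for gc, -1.88 for ttr, -1.44 for cps1 and -1.33 for itih3a, and, smaller, -1.25 for fetub, -1.06 for serpina1, -1.04 for apoea, -0.78 for VTN ENSDARG00000055388, -0.76 for apoa1b, -0.56 for hpda and -0.48 for serpinc1. Values above 0 were 3.71 for hpx, 1.08 for fgg, 0.99 for cp, 0.70 for fgb, 0.65 for f2, 0.60 for fga, 0.31 for VTN ENSDARG00000053831 and 0.30 for pah. The adjusted p values ran from 1.74e-07 for fetub to 0.049 for pah. The calls of fga, serpinc1, pah and VTN ENSDARG00000053831 ended when single libraries were left out, with the highest adjusted p at 0.0604, 0.0749, 0.145 and 0.0849. The mutant and wild-type fish are of different strains, so genotype and strain cannot be told apart here.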

How the results depend on the processing

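Against the main analysis, 5 other ways of scaling, testing or filtering were compared (DESeq2 size factors, library size alone, DESeq2, no filter on low counts, a mean count of at least 50), as were a fit to only the libraries compared, the first ID of each name, and a threshold of 2-fold or more. No log2 fold change of a gene of the set changed its direction with its call under any of them, nor with any library left out. At 2-fold or more, the calls were 3 higher and 15 lower in the mutant, 1 and 12 in wild type, 2 higher by interaction, 1 and 11 between the genotypes under iAs, and 0 and 3 without iAs. Library size alone gave 5 genes higher by interaction. Leaving out each library in turn gave 8 to 10 higher and 26 to 27 lower genes in the mutant, 7 to 9 and 25 to 27 in wild type, 5 to 8 and 13 to 16 by interaction, 10 to 13 and 18 to 20 between genotypes under iAs, and 0 to 5 and 3 to 9 without iAs. The cause of these moves was not tested.

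With a replicate block, the numbers in the titles gave 3 higher and 5 lower genes between untreated mutants and untreated wild type, and the other counts stayed within 1.5 times. Of all 23096 genes, 1448 were higher and 1497 lower in that comparison, so the set's share of higher genes was near that of all genes. The block ended the calls of itih2, itih3a and VTN ENSDARG00000055388 in that comparison and of pah by interaction. It made apoa2 higher in treated mutants a call, and changed no other call. Over the 4 comparisons of 2 groups, which share libraries, a library was compared with its 3 counterparts 12 times. The same number gave the highest correlation in 5 of 12, among them 3 of 3 for iAs in wild type. There, replicate 2 of treated wild type had 0.0374 with its own number and 0.0368 with replicate 1 of untreated wild type. Whether the numbers mark pairs cannot be told from such small correlations.

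Low counts limit ahsg2, ahsg1, crp5, hp and hpx, whose values rest on few reads in at least 1 group. For ahsg2 and crp5 in the mutant, the SE is smaller than the counting error alone. Calls from 3 libraries per group that sit close to the threshold, among them apoea in the mutant and pah by interaction, ended under other settings too (adjusted p = 0.0554 for apoea with DESeq2 and 0.108 for pah with library size alone).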
